A study of Mus musculus with 4 samples.

Results

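The endoplasmic reticulum (ER) chaperone and unfolded protein response (UPR) genes of Ly49H+ NK cells comprised 32 genes chosen by symbol, with earlier results of these data known. They were the chaperones and folding enzymes of the ER lumen and the 3 sensors of ER stress with the factors downstream of them. The degradation machinery and the channel through which new proteins enter the ER were also included. All 32 were among the 35798 named genes of the count table, and all 32 were among the 13822 genes that passed edgeR's filter on low counts. RNA was measured in 4 libraries. Wild-type (WT) NK cells from CD45.1 mice and TNFR2 KO NK cells from CD45.2 mice, which lack the TNFα receptor TNFR2, had been transferred together into NSG mice. All hosts received MCMV, a mouse herpesvirus that cells bearing the activating receptor Ly49H recognise, and Ly49H+ cells of either CD45 type were sorted from spleen at day 3.5. Each of the 2 libraries per genotype came from the pooled spleens of 3 hosts, and WT and TNFR2 KO libraries of the same number came from the same pool. Effects of genotype, of the CD45 allele and of the sort gate cannot be told apart. No uninfected sample entered the comparison. NSG mice have no mature T, B or NK cells of their own but keep myeloid cells.

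Secreted and membrane proteins, among them the granzymes, perforin and surface receptors of NK cells, are made on ribosomes docked at the ER and fold in its lumen. When unfolded proteins accumulate there, the sensors IRE1 (gene Ern1), PERK (Eif2ak3) and ATF6 start the UPR. IRE1 splices Xbp1 mRNA, PERK slows translation and favours that of ATF4, and ATF6 is cut to release a transcription factor, after which chaperone and degradation genes are induced. Counts summed per gene show neither Xbp1 splicing, nor the phosphorylation of PERK, nor the cutting of ATF6.

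Library totals ran from 32713256 to 39543650 counts, and expression is given as CPM, the count relative to a TMM-scaled library size. Tnfrsf1b, the targeted gene, was at 264.7 and 269 CPM in WT libraries and at 55.1 and 58.6 CPM in TNFR2 KO libraries. Duplicates were close, with a biological coefficient of variation of 3.33%, so small differences passed edgeR's quasi-likelihood test. At an adjusted p under 0.05, with the Benjamini-Hochberg method over all genes, 50.4% of genes were called, 24.2% as higher and 26.2% as lower in TNFR2 KO cells. The duplicates belong to a single experiment, so p-values measure the spread within it and not between experiments. Marker genes of other cells differed between the genotypes. The macrophage or monocyte markers summed to 4453 and 4419 CPM in WT libraries and to 1885 and 1859 CPM in TNFR2 KO libraries, with 30 of 33 tested markers lower and 2 higher. Markers of NK cells summed to 23297 and 23200 CPM in WT libraries and 42545 and 42077 CPM in TNFR2 KO libraries, with 42 of 45 higher and a median log2-fold change of 0.84. In such bulk samples, fewer cells of a type and less RNA per cell cannot be told apart.

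Several main ER chaperones, such as BiP and calreticulin, were modestly lower in TNFR2 KO cells, while fewer genes, such as the sensor Eif2ak3, were slightly higher. By edgeR's test, 13 of the 32 genes (40.6%, against 26.2% of all genes) were lower in TNFR2 KO cells, 7 (21.9%, against 24.2%) were higher and 12 did not pass. With scaling on library size alone, which moved the median of all genes to -0.06, 18 were lower and 3 higher. At that setting 4388 of all 13822 genes were lower and 2419 higher. With DESeq2 11 were lower and 4 higher, beside 2858 lower and 2555 higher of all genes. In the reported fit these all-gene counts were 3624 and 3341. None of the 32 exceeded an absolute log2-fold change of 1, which 13.3% of all genes did with an adjusted p under 0.05, and 1, Trib3, exceeded 0.5, which 21.2% of all genes did. The median log2-fold change was -0.04, beside -0.003 for all genes tested, and single values ran from -0.78 to 0.30. Summed over the 32 genes, expression was 10999 and 10896 CPM in WT libraries and 10171 and 10054 CPM in TNFR2 KO libraries. WT and TNFR2 KO values did not overlap for 28 of the genes, 10 higher and 18 lower, where 74.0% of all genes did not overlap (36.4% higher and 37.7% lower). Of the 20 genes called, 12 kept their call in each of 11 other ways of processing the data. These were Hspa5, Hsp90b1, Hyou1, Calr, Canx, Pdia6, P4hb, Manf and Creld2, which were lower, and Dnajc3, Ppib and Eif2ak3, which were higher. Kept calls were not counted over all genes, so whether the members hold their calls more often than other genes is not known.

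**Figure D1:**
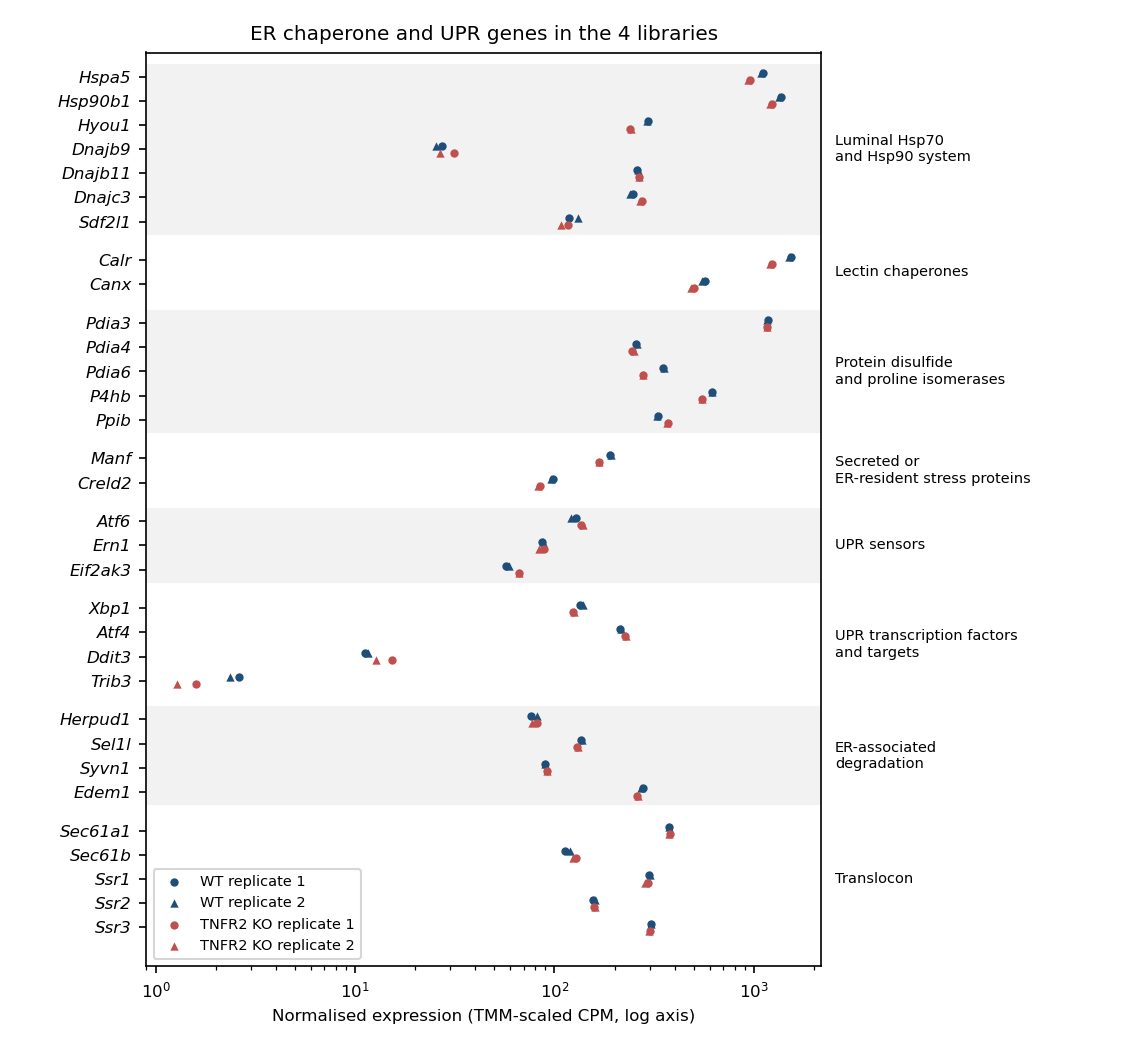
Expression of the 32 genes in each library, in TMM-scaled CPM on a log axis, with WT and TNFR2 KO libraries in different colours and genes ordered by role. Values span from 1.28 CPM for Trib3 to 1527 CPM for Calr, and duplicates lie close together for most genes.

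Of the 7 genes of the Hsp70 and Hsp90 system of the lumen, 4 fell and 1 rose. Hspa5 encodes BiP, the ER Hsp70 that binds unfolded chains and holds the sensors inactive, and lies on the plus strand at chr2:34771970-34777547 (GENCODE M21, GRCm38, the build also called mm10). It was expressed at 1104 and 1083 CPM in WT libraries and at 954 and 932 CPM in TNFR2 KO libraries. Both TNFR2 KO values lay below both WT values, with a log2-fold change of -0.21 (SE 0.0229, adjusted p = 7.62e-06 by edgeR). Hsp90b1 encodes GRP94, the Hsp90 of the lumen, whose known clients include Toll-like receptors and integrins. It was at 1369 and 1333 CPM in WT and 1227 and 1211 CPM in TNFR2 KO libraries, with a log2-fold change of -0.15 (SE 0.0223, adjusted p = 0.00014 by edgeR). Hyou1, a large Hsp70 relative that exchanges nucleotide on BiP, was at 295 and 291 CPM in WT and 239 and 241 CPM in TNFR2 KO libraries. Its log2-fold change was -0.29 (SE 0.0262, adjusted p = 1.68e-06 by edgeR), a fall of 18.1% and the largest of the 7 genes in this group.

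Of the J-domain partners of BiP, 1 rose and the other 2 did not pass the test. Dnajc3, which encodes p58IPK, an inhibitor of PERK as well as a cochaperone, was higher, at 273 and 268 CPM in TNFR2 KO libraries against 249 and 238 CPM in WT libraries (log2-fold change 0.15, SE 0.0294, adjusted p = 0.00089 by edgeR). Dnajb11, a cochaperone that delivers unfolded chains to BiP, stood at 259.8 and 263 CPM in WT and 266 and 266 CPM in TNFR2 KO libraries and did not pass the test (log2-fold change 0.02, adjusted p = 0.49 by edgeR). Dnajb9, the cochaperone through which BiP restrains IRE1, was low and its groups overlapped, at 27.3 and 25.3 CPM in WT and 31.5 and 26.7 CPM in TNFR2 KO libraries (adjusted p = 0.13). Without TNFR2 KO replicate 2 its log2-fold change rose from 0.15 to 0.26 and passed the test. Sdf2l1, a partner of BiP and its cochaperones, was lower, at 118 and 131 CPM in WT and 117 and 108 CPM in TNFR2 KO libraries (log2-fold change -0.15, SE 0.0488, adjusted p = 0.026 by edgeR). That call was lost without WT replicate 2, where the log2-fold change was -0.06, or without TNFR2 KO replicate 2.

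Both lectin chaperones, which hold newly made glycoproteins through their sugar chains, were lower. Calr encodes calreticulin, the soluble form, on the minus strand at chr8:84841850-84846934. It was the most abundant of the 32 genes, at 1527 and 1491 CPM in WT and 1232 and 1197 CPM in TNFR2 KO libraries, with a log2-fold change of -0.31 (SE 0.0231, adjusted p = 2.43e-07 by edgeR) or a fall of 19.5%. Canx encodes calnexin, the membrane-bound form, and was at 565 and 549.7 CPM in WT and 503 and 484 CPM in TNFR2 KO libraries (log2-fold change -0.18, SE 0.0269, adjusted p = 0.00016 by edgeR). For both genes each TNFR2 KO library was below each WT library.

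The isomerases, which form and rearrange disulfide bonds or turn proline bonds, differed among themselves. Pdia6 (chr12:17266545-17284770, plus strand), a disulfide isomerase that also acts on IRE1 signalling, had the largest called fall after Trib3, from 351 and 353 CPM in WT to 278 and 278 CPM in TNFR2 KO libraries, with a log2-fold change of -0.34 (SE 0.0249, adjusted p = 2.31e-07 by edgeR). P4hb, which encodes the classical protein disulfide isomerase, was at 619 and 615 CPM in WT and 549 and 549 CPM in TNFR2 KO libraries (log2-fold change -0.17, SE 0.023, adjusted p = 5.99e-05 by edgeR). Pdia3, the isomerase that works with calnexin and calreticulin and sits in the loading complex of MHC class I, was at 1176 and 1168 CPM in WT and 1157 and 1168 CPM in TNFR2 KO libraries and did not pass (log2-fold change -0.01, SE 0.021, adjusted p = 0.68 by edgeR). Pdia4 ranged from 257 to 261 CPM in WT and from 244 to 251 CPM in TNFR2 KO libraries and did not pass (log2-fold change -0.06, adjusted p = 0.069 by edgeR). Ppib, a proline isomerase (cyclophilin B), was higher, at 372 and 366 CPM in TNFR2 KO against 329.9 and 327 CPM in WT libraries (log2-fold change 0.17, SE 0.0249, adjusted p = 0.00013 by edgeR). Of the 31-base stretches of Ppib transcripts, 37.0% also occur in other genes, most of them in its neighbour Snx22, so its reads could be divided between genes. The share was 15.0% for Ssr2, 12.3% for Hsp90b1 and 10.8% for Dnajb9.

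Manf and Creld2 encode small ER proteins that are secreted under stress, and both were lower. Manf was at 191 and 192 CPM in WT and 166 and 167 CPM in TNFR2 KO libraries (log2-fold change -0.20, SE 0.0278, adjusted p = 6.42e-05 by edgeR). Creld2 was at 98.5 and 96.2 CPM in WT and 85.0 and 82.7 CPM in TNFR2 KO libraries (log2-fold change -0.21, SE 0.0362, adjusted p = 0.00035 by edgeR).

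**Figure D2:**
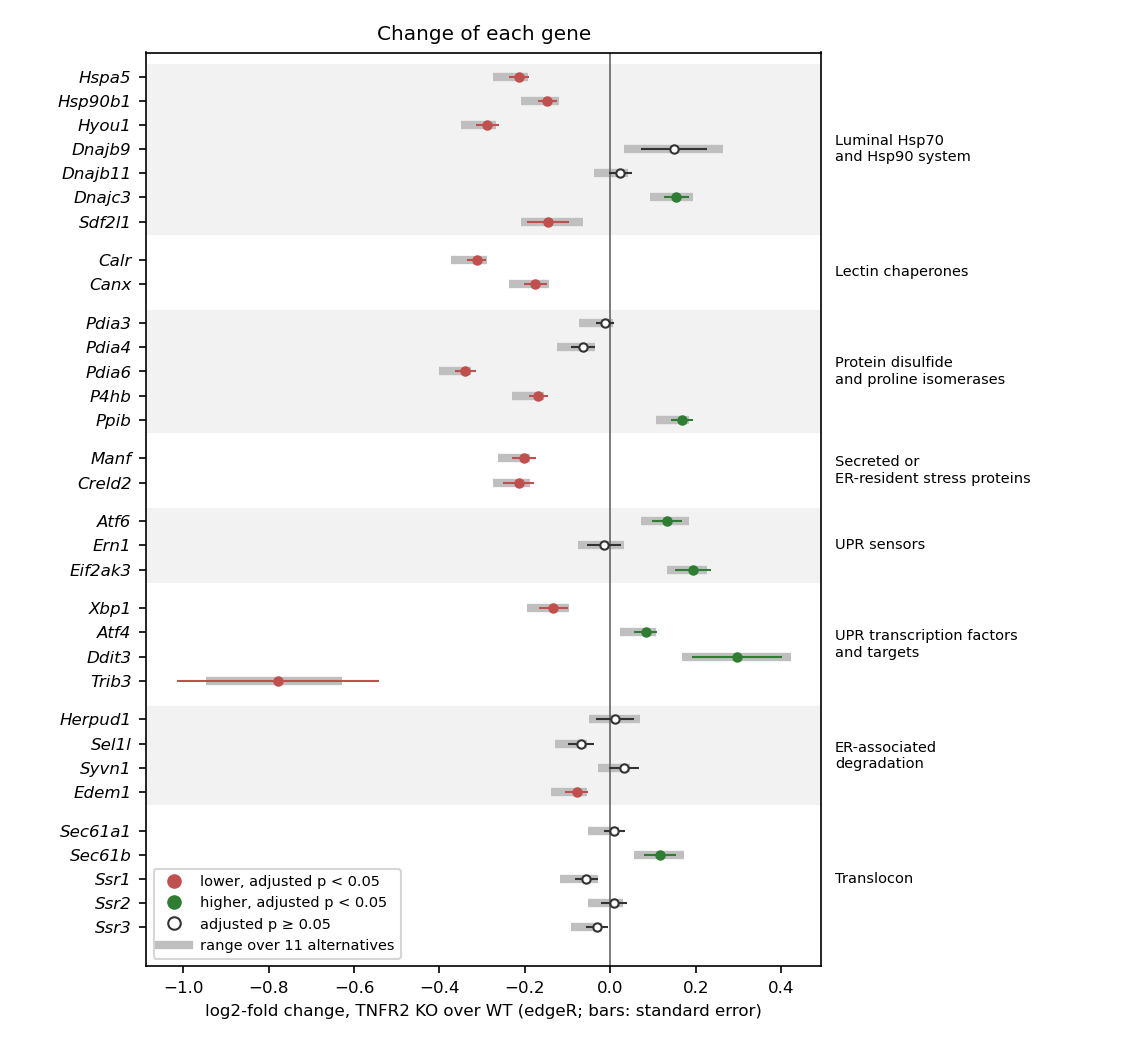
Log2-fold change of TNFR2 KO over WT for each of the 32 genes (points, with bars of 1 standard error) by edgeR, filled where the adjusted p was under 0.05, and the range over the 11 alternatives in grey. Most chaperones and isomerases lie left of 0, and Eif2ak3, Ppib and Dnajc3 lie to its right over their whole range.

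Of the sensors, 2 of 3 were higher and none was lower. Eif2ak3 (PERK, the eIF2α kinase of the ER; chr6:70844515-70905245, plus strand) was at 57.1 and 59.0 CPM in WT and 66.1 and 66.6 CPM in TNFR2 KO libraries, with a log2-fold change of 0.19 (SE 0.0411, adjusted p = 0.0019 by edgeR). Atf6 was at 129 and 122 CPM in WT and 137 and 138 CPM in TNFR2 KO libraries (log2-fold change 0.13, SE 0.0352, adjusted p = 0.0075 by edgeR), a call that was lost without WT replicate 2 (log2-fold change 0.10) and with scaling on library size alone. Ern1 (IRE1) overlapped between the groups, at 87.0 and 87.7 CPM in WT and 88.9 and 83.7 CPM in TNFR2 KO libraries (log2-fold change -0.02, SE 0.0393, adjusted p = 0.78 by edgeR).

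The 4 transcription factors and targets downstream of the sensors divided evenly, with 2 higher and 2 lower. Xbp1, which encodes the factor made from the mRNA that IRE1 splices, was lower, at 134 and 139 CPM in WT and 123 and 125 CPM in TNFR2 KO libraries (log2-fold change -0.13, SE 0.0332, adjusted p = 0.0052 by edgeR), and was not called without WT replicate 2 (log2-fold change -0.10). Atf4, the factor of the PERK branch, which is controlled mainly at translation, was at 212 and 217 CPM in WT and 226 and 228 CPM in TNFR2 KO libraries (log2-fold change 0.08, SE 0.0273, adjusted p = 0.024 by edgeR). Its call did not hold without WT replicate 1, without TNFR2 KO replicate 2, with DESeq2, with library size alone or with a minimum of 10 CPM.

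The ATF4 targets Ddit3 and Trib3 rested on the fewest counts of the 32 genes and moved in opposite directions. Ddit3, which encodes the stress factor CHOP, was at 11.3 and 11.6 CPM in WT and 15.3 and 12.8 CPM in TNFR2 KO libraries (log2-fold change 0.30, SE 0.105, adjusted p = 0.034 by edgeR). Without TNFR2 KO replicate 1 its log2-fold change was 0.17 and not called, and it was not called without either WT replicate, with DESeq2 or with library size alone. Trib3, a pseudokinase that curbs the stress response, was at 2.61 and 2.36 CPM in WT and 1.60 and 1.28 CPM in TNFR2 KO libraries (log2-fold change -0.78, SE 0.236, adjusted p = 0.016 by edgeR). It was not called without WT replicate 1 (log2-fold change between -0.95 and -0.63 over the libraries left out in turn), without TNFR2 KO replicate 2 or with DESeq2.

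Genes of ER-associated degradation, which returns misfolded proteins to the cytosol, held 1 call of 4. Edem1, which trims sugars of misfolded glycoproteins, was lower, at 278 and 272 CPM in WT and 260.3 and 261 CPM in TNFR2 KO libraries (log2-fold change -0.08, SE 0.0264, adjusted p = 0.026 by edgeR), but it was not called with any 1 of the 4 libraries left out (log2-fold change from -0.09 to -0.05) or with DESeq2. Sel1l, the adaptor of the ligase, and Syvn1, the ubiquitin ligase HRD1, did not pass. Sel1l was at 136 and 138 CPM in WT and 130.4 and 131 CPM in TNFR2 KO libraries (log2-fold change -0.07, adjusted p = 0.078 by edgeR), and Syvn1 was at 89.8 and 89.4 CPM and at 91.2 and 91.8 CPM (log2-fold change 0.03, adjusted p = 0.49 by edgeR). Herpud1, which recruits the ligase complex and is a sensitive target of the UPR, overlapped between groups, at 76.4 and 81.7 CPM in WT and 81.8 and 77.3 CPM in TNFR2 KO libraries (log2-fold change 0.01, adjusted p = 0.87 by edgeR).

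Of the 5 translocon genes 1 was higher and none lower. Sec61a1, the pore of the channel, was at 375 and 374 CPM in WT and 378 and 376 CPM in TNFR2 KO libraries (log2-fold change 0.01, SE 0.0241, adjusted p = 0.78 by edgeR). The 3 subunits of the translocon-associated complex, Ssr1, Ssr2 and Ssr3, had log2-fold changes of -0.06, 0.01 and -0.03, none of which passed. Their levels ran from 156 CPM, for Ssr2, to 306 CPM, for Ssr3, in WT libraries. Sec61b, a small subunit of the channel, was higher, at 113 and 120.1 CPM in WT and 128 and 124 CPM in TNFR2 KO libraries (log2-fold change 0.12, SE 0.0375, adjusted p = 0.022 by edgeR). Its call was lost without WT replicate 1 (log2-fold change 0.08), with DESeq2, with library size alone and with a minimum of 10 CPM, and 23.5% of its 31-base stretches occur in other genes, most of them in Gm10320.

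Levels were compared between genes as CPM per kb, dividing each gene's mean by the median length of its coding transcripts. Calr and Hsp90b1 had the highest levels in WT cells, at 691 and 685 CPM per kb, followed by Pdia3 at 423, Ppib at 368, Manf at 351, Hspa5 at 348 and P4hb at 340 CPM per kb. In TNFR2 KO libraries Hsp90b1 was at 618 and Calr at 556 CPM per kb. Each length is a median over annotated coding transcripts (1972 bases for Hsp90b1, 2184 for Calr). It need not match the transcripts expressed in these cells, so the order of genes per kb is uncertain. Manf and Hspa5 were close per kb, but their WT means were 192 and 1094 CPM, over lengths of 545 and 3142.5 bases. Sensors were far lower, with WT levels of 66.7 CPM per kb for Ern1, 21.3 for Eif2ak3 and 17.3 for Atf6. Not divided by length, Atf6 (a mean of 125 CPM in WT) stood above Ern1 (87.3 CPM), so the order of the sensors depends on the lengths used. Trib3 was lowest at 1.23 CPM per kb.

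To show the DNA through which UPR factors are known to act on these genes, RefSeq promoter windows on GRCm38.p6 (250 bases before to 50 after the start site) were searched on both strands. The ER stress response element (ERSE, the letters CCAAT and CCACG with 9 free bases between them), known to be bound by NF-Y with ATF6 or XBP1, was in the windows of 8 of the 27 members with one, against 0.119% of all 32851 windows. ERSE-II (ATTGG and CCACG with 1 free base between them) was in 2 more, against 0.0365% of all windows. The UPR element TGACGTGG was in none, against 0.676% of all windows. The ATF4 site TGATGNAA was in the windows of Herpud1 and Trib3, against 3.97% of all windows. Among the 10238 tested genes with a window, the shares were 0.186% for ERSE and 0.0781% for ERSE-II. They were 1.01% for the UPR element and 2.87% for the ATF4 site. The members were chosen as ER chaperone and UPR genes, so a larger share among them is no test of these data. Windows of Atf6, Hyou1, Manf, Sec61a1 and Ssr2 were not analysed here. All ERSE and ERSE-II matches of the members are listed below, whatever the direction of the gene. They are written 5′ to 3′ with the element in capitals and 5 flanking bases on each side, on the strand that reads as the motif.
Hspa5, chr2:34772025-34772043, plus strand: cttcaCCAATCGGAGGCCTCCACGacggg
Hsp90b1, chr10:86705533-86705551, plus strand: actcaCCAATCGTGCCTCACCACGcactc
Hsp90b1, second copy, chr10:86705638-86705656, minus strand: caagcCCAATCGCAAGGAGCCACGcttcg
Calr, chr8:84847075-84847093, plus strand: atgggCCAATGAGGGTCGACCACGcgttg
Canx, chr11:50325800-50325818, minus strand: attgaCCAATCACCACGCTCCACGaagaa
Pdia6, chr12:17266491-17266509, plus strand: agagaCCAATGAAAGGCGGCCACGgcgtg
Creld2, chr15:88819520-88819538, minus strand: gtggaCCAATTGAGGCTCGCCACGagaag
Dnajc3, chr14:118937827-118937845, plus strand: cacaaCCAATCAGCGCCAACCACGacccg
Syvn1, chr19:6046532-6046550, plus strand: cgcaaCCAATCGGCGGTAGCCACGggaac
Herpud1, ERSE-II, chr8:94386377-94386387, plus strand: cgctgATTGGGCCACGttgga
Dnajb11, ERSE-II, chr16:22857852-22857862, plus strand: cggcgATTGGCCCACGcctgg

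All but 1 of these 11 matches lay before the RefSeq start site, and their first bases stood from 212 bases before it, in Hsp90b1, to 44 bases before it, in Syvn1. The match of Dnajb11 began 7 bases after the start. Most of each searched window lies before the start, so most matches placed at random would also lie there. The GENCODE gene of Hspa5 starts further upstream than its RefSeq start, so its match lay 55 bases inside the GENCODE gene, while the other 9 matches before a RefSeq start were also before the GENCODE start. Of the 10 members with either element, 6 were lower (Hspa5, Hsp90b1, Calr, Canx, Pdia6 and Creld2), 1 was higher (Dnajc3) and Dnajb11, Herpud1 and Syvn1 did not pass, with a median log2-fold change of -0.16. Of the 17 members whose windows held neither, 5 were lower and 5 higher, with a median of -0.03. Among the 17 tested genes outside the 32 whose windows held either element, 4 were lower and 7 higher, with a median of 0.13, beside 26.8% lower and 25.3% higher among all 10238 tested genes with a window. They included the degradation gene Derl3, at 1.58 and 1.90 CPM in WT and 1.29 and 1.12 CPM in TNFR2 KO libraries (adjusted p = 0.14), and Krtcap2, a subunit of the oligosaccharyl transferase, which was higher (log2-fold change 0.20, adjusted p = 0.00059 by edgeR). Both were chosen after their values were seen. A match describes the sequence and does not show binding in these cells.

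**Figure D3:**
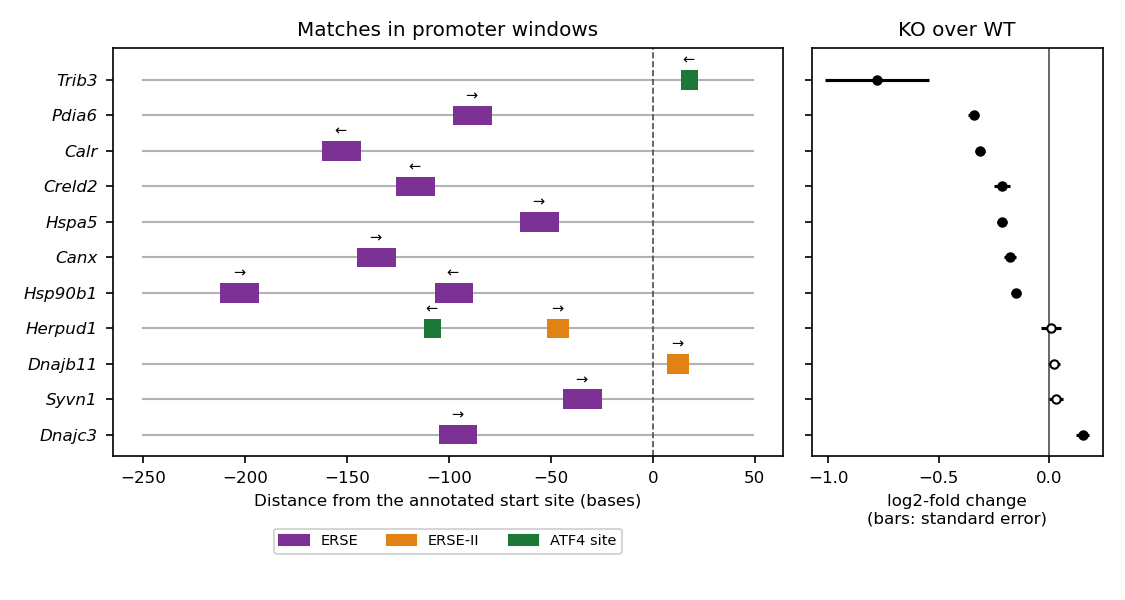
Left, positions of ERSE, ERSE-II and ATF4-site matches in the promoter windows, in bases from the RefSeq start site. Right, the log2-fold change of the same genes with bars of 1 standard error. Most matches lie before the start, as does most of each searched window, so their side of the start is no test of clustering. Of the 10 genes with ERSE or ERSE-II, 6 were lower and 1 was higher in TNFR2 KO cells. Of 17 tested genes outside the members with either element (not shown), 4 were lower and 7 higher.

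Other genes of the same machinery were described from lists taken by function. The share of each list stands beside 26.2% lower and 24.2% higher among all genes tested. Among 32 further ER folding and oxidation genes 13 (40.6%) were lower and 5 (15.6%) higher (median log2-fold change -0.02). Cnpy3, a cochaperone of GRP94 for Toll-like receptors, fell from a mean of 46.0 CPM to 26.3 CPM (log2-fold change -0.81, SE 0.0511, adjusted p = 5.52e-08 by edgeR). P4ha1, the catalytic subunit that joins P4hb in prolyl hydroxylase, fell by 0.82 on the log2 scale, Dnajc1, a J-domain protein of the ER membrane, rose by 0.46, and Sdf2, a relative of Sdf2l1, rose by 0.45. Among 33 further degradation genes 11 (33.3%) were higher and 7 (21.2%) lower (median 0.07). Ube2g2, a ubiquitin-conjugating enzyme, was at 0.35 and Herpud2 at 0.31, and the membrane proteins Erlin1 and Erlin2 were at -0.76 and -0.38.

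Of 47 further UPR and integrated stress response genes, 20 (42.6%) were lower and 10 (21.3%) higher (median -0.09). An absolute log2-fold change of 1 was exceeded by 5 of the 47, and by 13.3% of all genes, with an adjusted p under 0.05. Atf3, a stress-induced repressor, was at 17.2 and 16.8 CPM in WT and 4.63 and 5.56 CPM in TNFR2 KO libraries (log2-fold change -1.75, SE 0.113, adjusted p = 7.09e-08 by edgeR). Cebpb, which encodes a partner of CHOP that is also a factor of myeloid cells, was at 84.8 and 84.2 CPM in WT and 31.7 and 29.8 CPM in TNFR2 KO libraries (log2-fold change -1.46, SE 0.0458, adjusted p = 7.05e-11 by edgeR). The other 3 past 1, chosen after their values were seen, were Nupr1 at -2.40, Slc7a11 at -1.94 and Creb3l1 at 1.23. The folding gene Pdia5 at -1.92 and the degradation gene Svip at -2.45 were chosen in the same way. All 5 were expressed under 10 CPM in every library. Bcl2l11 (BIM), a death effector that CHOP can induce, rose by 0.56, from a mean of 85.0 to 125 CPM, and Bbc3 (PUMA) rose by 0.39.

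In translocation, signal peptidase and glycosyl transfer 14 of 49 (28.6%) were higher and 5 (10.2%) lower (median 0.05), none past an absolute log2-fold change of 1. On the log2 scale Srp14 was at 0.26, Emc2 at 0.23, Mcfd2 at -0.52 and Srp54b at -0.40. Among 38 cytosolic chaperones 18 (47.4%) were lower and 9 (23.7%) higher (median -0.08). Hsp90aa1, the stress-inducible Hsp90, fell from a mean of 841 to 655 CPM (log2-fold change -0.36, SE 0.0245, adjusted p = 1.09e-07 by edgeR) and Hspa1b, an inducible Hsp70, fell by 0.97, while Dnajb4 rose by 0.58 and Hspa2 by 0.37. Among 18 mitochondrial chaperones and proteases 9 were lower and 2 higher (median -0.12), with Hspa9, the Hsp70 of the matrix, at -0.39, Htra2 at -0.92, Dnajc15 at 0.33 and Hscb at 0.41.

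**Figure D4:**
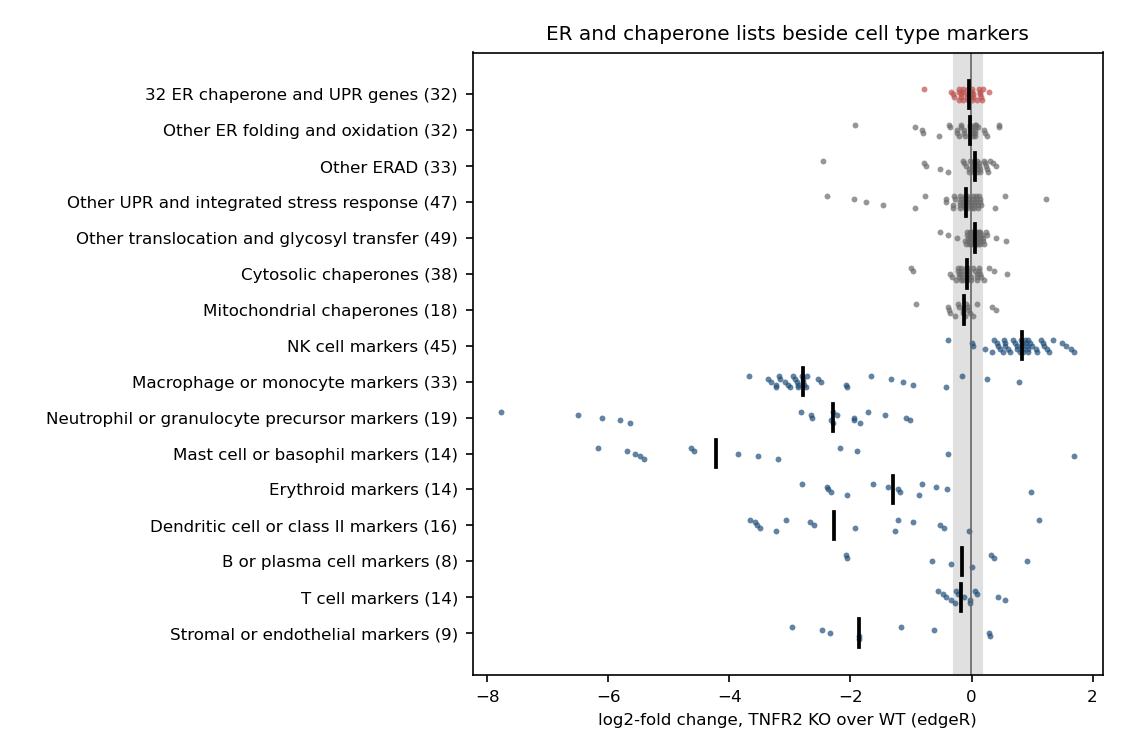
Log2-fold changes of TNFR2 KO over WT for every tested gene of the ER and chaperone lists beside those of cell type markers, 1 point per gene, with the number tested in brackets. The ER lists centre near 0, with medians from -0.09 to 0.07, while NK markers have a median of 0.84 and macrophage or monocyte markers of -2.79.

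Calr, Hspa5 and the other members called lower fell in the same libraries in which markers of myeloid and other cells were lower. The part of those cells in the result was not tested. Beside the macrophage or monocyte list, all 19 neutrophil or granulocyte precursor markers were lower (1141 and 1155 CPM summed in WT, 125 and 121 CPM in TNFR2 KO libraries), as were 12 of 14 mast cell or basophil markers (1294 and 1291 CPM against 105 and 105 CPM), while Cma1, also in the NK list, was higher. In the dendritic cell or class II list 11 of 16 were lower and 1, Itgax, was higher (2363 and 2394 CPM against 1126 and 1149.7 CPM). Of 14 erythroid markers 12 were lower (559 and 552 CPM against 477 and 469 CPM). The most abundant, Car2, was higher, from a mean of 171 CPM to 337 CPM (log2-fold change 0.98). Several markers in these lists are also expressed by NK cells, and Ccr2 and Itgax rose with the NK markers, by 0.78 and 1.11 on the log2 scale. Defining myeloid markers were well above 0 in WT libraries, with Csf1r at 254 and 255 CPM, Lyz2 at 771 and 778 CPM, Mpo at a mean of 358 CPM and Prss34 at a mean of 590 CPM. In TNFR2 KO libraries Csf1r was at 27.4 and 26.7 CPM and Lyz2 at 114 and 110 CPM. Of 14 T cell markers 7 were lower and 3 higher. Of 17 B or plasma cell markers 9 were too low to test, and 3 of the 8 tested were lower and 3 higher. Of 17 stromal or endothelial markers 9 were tested, with 6 lower and 1, Pecam1, higher. That list summed to 115 and 122 CPM in WT and 138 and 136 CPM in TNFR2 KO libraries. Most of the sum came from Pecam1 (105 and 110 CPM, against 134 and 134 CPM). The B or plasma cell list summed to 147 and 146 CPM in WT and 184 and 180.1 CPM in TNFR2 KO libraries, most of it from Prdm1 (66.5 and 67.2 CPM, against 87.4 and 86.5 CPM) and Ighm (36.8 and 37.9 CPM, against 48.1 and 45.6 CPM), both higher in TNFR2 KO cells. Defining NK genes were expressed in every library, with Ncr1 at 258 and 256 CPM in WT and 511 and 511 CPM in TNFR2 KO libraries and Klra8, which encodes Ly49H, at 313 and 316 CPM and at 762 and 726 CPM.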

How the data were processed

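The libraries were poly-A selected, stranded and sequenced as 100 bp pairs. The submitters' processing notes name Trimmomatic 1.4, kallisto 0.46.1 and mm10. The authors summed estimated counts per gene with Tximport and deposited these expected counts per gene symbol, not scaled between libraries; the transcript annotation behind them is not given in the sources used. A row without a gene name (0.0559% to 0.0728% of counts) was left out.

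Expected counts were rounded, filtered with filterByExpr, scaled by TMM and tested with edgeR 4.0.16 (R 4.3.3) by the quasi-likelihood test, with no covariate beside genotype and p-values adjusted over all 13822 genes by the Benjamini-Hochberg method. The threshold was an adjusted p of 0.05. Each SE was derived from that test, as the absolute log2-fold change divided by the square root of its F statistic. For one gene alone, the smallest two-sided p of an exact permutation test at 2 against 2 is 0.333. Duplicates differed beyond counting noise (mean chi-square per gene 3.36 between WT and 3.58 between TNFR2 KO libraries). The steps were tested on simulated counts. The labels state that same-numbered libraries share a spleen pool, so the numbers pair the samples by that statement, although the correlation of their deviations from the group means was only 0.0205. A paired fit, with this number as a block, was one alternative.

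The others were DESeq2 1.42.0, scaling by RLE, by upper quartile or by library size alone, no filter, a mean of at least 10 CPM, and each library left out in turn. Positions, lengths and shared 31-base stretches came from GENCODE M21, which held all 32 genes and stands in for the authors' annotation, and promoter windows came from RefSeq, which matched 27 of them by symbol. Genes named are all members, Tnfrsf1b, up to 2 per direction in each other ER or chaperone list with the largest change among those called with a mean of at least 10 CPM, and abundant markers. Cma1, Csf1r, Lyz2, Ncr1 and Klra8 were added after their values were seen. The members and lists were chosen with earlier results of these data known. Plots were drawn with matplotlib 3.10.9.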

Additional observations from a re-analysis of the deposited data

How the results depend on the processing

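The replicate block changed no call among the 32 genes (again 7 higher and 13 lower), and called 7088 genes in all. Of 20 members called, 12 kept their call in all 11 alternatives and 8 lost it in at least 1, while no called member changed direction. The same was not counted for all called genes. The count higher in TNFR2 KO cells (7) was 3 with library size alone, which moved the median of all genes to -0.06. It was 4 with DESeq2 and 5 with the minimum of 10 CPM. The count lower (13) was 18 with library size alone, 16 with the minimum of 10 CPM and 11 with DESeq2. Calls over all genes moved as well. Library size alone gave 4388 lower and 2419 higher, and DESeq2 gave 2858 lower and 2555 higher. The minimum of 10 CPM gave 2502 lower and 2477 higher among 8763 genes tested. The count past an absolute log2-fold change of 0.5 was 0 with DESeq2 and with the minimum of 10 CPM, which removes Trib3, and 0 to 1 with a library left out. The median log2-fold change of the members (-0.044) was -0.105 with library size alone, -0.0679 with the minimum of 10 CPM, -0.0352 with upper-quartile factors and -0.0386 with no filter, and ran from -0.0426 to -0.0250 with a library left out.

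In the other lists, library size alone gave 7 degradation genes higher, 3 stress response genes higher, 7 translocation genes higher and 13 lower, and 5 cytosolic chaperones higher. DESeq2 gave 6 degradation genes higher and 4 lower, and 5 mitochondrial chaperones lower. The minimum of 10 CPM gave 4 stress response genes higher and 11 translocation genes lower. With a library left out, ER folding genes lower ran from 8 to 11, degradation genes lower from 4 to 5, stress response genes higher from 5 to 10, and cytosolic chaperones higher from 6 to 9.

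In these alternatives the direction reversed for 7 of the 32 genes and for Trbc2, none of which had passed the test. With library size alone the log2-fold change was -0.0375 for Dnajb11, -0.0502 for Herpud1, -0.0297 for Syvn1, -0.0514 for Sec61a1 and -0.0524 for Ssr2, and with the minimum of 10 CPM it was -0.013, -0.0256, -0.0052, -0.0269 and -0.0279 in that order. With a library left out, Pdia3 ran from -0.0132 to 0.0051, Ern1 ran from -0.0501 to 0.031, Herpud1 ran from -0.0296 to 0.0685 and Trbc2 ran from -0.0604 to 0.0286. The causes were not tested. Trib3 and Ddit3 rest on the fewest counts of the 32.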
